A study of Homo sapiens with 6 samples.

Results

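AXL and 9 other receptor tyrosine kinase genes were followed in T24, an established line from a human bladder carcinoma, after knockdown of the deubiquitinase gene USP43. The 10 genes (AXL, TYRO3, EGFR, ERBB2, ERBB3, MET, FGFR1, FGFR3, EPHA2 and IGF1R) were matched by symbol, and all 10 were present among the 63241 genes of the deposited table. They were chosen by name with their siUSP43 and siNC values in these libraries already known. Their differences between the groups are therefore given as a description, and no test of them is read. The study asked how USP43 bears on lipid metabolism in bladder cancer. It compared 3 libraries of cells transfected with a small interfering RNA against USP43 (siUSP43, labelled as knockdown) with 3 of cells transfected with a control duplex (siNC, labelled as wild type). All 6 libraries came from the same cell line, grown in RPMI medium with 10% serum and carrying the same batch label. The labels do not say whether the replicates were separate cultures or whether the siUSP43 libraries received the same duplex, so the p-values take in no more than the spread from library to library, which may be technical.

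Receptor tyrosine kinases are single-pass membrane proteins, most of which dimerise when an outside ligand binds. They phosphorylate tyrosines in their own tails and recruit adaptors that feed the RAS and phosphoinositide 3-kinase pathways. AXL and TYRO3 belong with MERTK to the TAM family, whose ligands GAS6 and protein S bridge the receptor to phosphatidylserine on dying cells, and AXL is known for its association with invasion and drug tolerance in carcinomas. EGFR, ERBB2 and ERBB3 belong to the ERBB family, MET is the hepatocyte growth factor receptor, and FGFR3 is frequently mutated in bladder cancers of the papillary kind.

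The libraries held 21430574 to 25577200 gene counts, and mitochondrial genes took 5.41 to 5.81% of them. USP43 itself was at 1.02, 0.67 and 0.80 FPKM in siUSP43 libraries, against 2.36, 2.09 and 2.08 in siNC libraries, a difference of -1.40 (SE 0.14) in log2 fold change. FPKM is a read count scaled to the exonic size of the gene and to the library. Where that size is longer than the mRNA in these cells, FPKM understates the level, so comparisons between genes are rough. Keratins 7, 8 and 18 and vimentin were abundant, while keratin 19 averaged 9.37 FPKM in siUSP43 and 12.03 in siNC. CDH1 was at 0 in all siUSP43 libraries and at most 0.02 FPKM in siNC libraries, and EPCAM was at 1.18 to 1.3 FPKM against 0.48 to 0.73. Summed over 4 mesenchymal markers, FPKM was 503.5 to 527.2 in siUSP43 and 672.0 to 674.4 in siNC, mostly through FN1 (fibronectin), and over 7 urothelial markers 5.84 to 6.09 against 8.90 to 9.59, where FOXA1 averaged 2.85 FPKM against 6.67 and PPARG went the other way, at 2.74 against 1.92. The 6 epithelial markers summed to 466.0 to 529.5 against 523.7 to 540.8. The part of these differences in the receptor levels was not tested. None of the 5 fibroblast, 3 endothelial and 4 leukocyte markers reached a mean of 1 FPKM. Their summed levels were 0.90 to 1.01 FPKM in siUSP43 libraries and 0.87 to 1.13 in siNC libraries for the fibroblast list, 0.06 to 0.10 and 0.11 to 0.17 for the endothelial list, and 0.41 to 0.56 and 0.89 to 1.06 for the leukocyte list. In bulk RNA a smaller number of cells expressing a gene and less RNA per cell cannot be told apart.

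AXL had the highest FPKM of the 10 receptors in control cells and showed by far the largest difference of them. Its level was 21.05, 19.69 and 21.53 FPKM in siUSP43 libraries, against 84.64, 85.76 and 89.13 FPKM in siNC libraries. The groups lay far apart, and within each group the libraries were close, with means of 20.8 ± 0.954 and 86.5 ± 2.34 FPKM (SD, n = 3 each). The reads behind these values were 3227, 2556 and 3342 in siUSP43 and 12421, 12853 and 13400 in siNC. The log2 fold change, siUSP43 over siNC, was -2.08 (SE 0.05), a level 4.22-fold lower, which placed AXL 15th by size of decrease among the 11417 genes with a mean of at least 1 FPKM. By mean FPKM over all genes, AXL stood at rank 1780 in siUSP43 and at rank 322 in siNC.

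AXL lies on chromosome 19 (ENSG00000167601, GRCh38, 41219223 to 41261766, plus strand). The 200 bases before its start are shown because it is the receptor that differed most, beside those of EGFR and MET, which were also lower in siUSP43, and of EPHA2, which was higher. Each runs 5′ to 3′ on the gene's own strand and ends at the base before the RefSeq start on GRCh38.p14, and the capitals mark GGGCGG or its reverse complement, the core of the GC box bound by SP1 factors.
AXL, chr19:41219023-41219222, plus strand: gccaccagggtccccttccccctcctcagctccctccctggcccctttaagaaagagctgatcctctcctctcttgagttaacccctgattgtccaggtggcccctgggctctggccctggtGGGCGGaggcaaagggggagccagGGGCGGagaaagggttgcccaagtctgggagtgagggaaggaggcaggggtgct
EGFR, chr7:55018817-55019016, plus strand: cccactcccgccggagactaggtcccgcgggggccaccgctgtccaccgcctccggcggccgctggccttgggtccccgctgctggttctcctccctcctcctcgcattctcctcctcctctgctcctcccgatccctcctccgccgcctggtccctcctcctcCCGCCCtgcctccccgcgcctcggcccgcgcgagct
MET, chr7:116671996-116672195, plus strand: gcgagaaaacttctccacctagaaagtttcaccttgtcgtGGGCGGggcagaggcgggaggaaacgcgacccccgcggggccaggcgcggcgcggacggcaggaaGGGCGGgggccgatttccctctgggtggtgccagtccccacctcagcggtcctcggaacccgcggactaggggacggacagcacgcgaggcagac
EPHA2, chr1:16156070-16156269, minus strand: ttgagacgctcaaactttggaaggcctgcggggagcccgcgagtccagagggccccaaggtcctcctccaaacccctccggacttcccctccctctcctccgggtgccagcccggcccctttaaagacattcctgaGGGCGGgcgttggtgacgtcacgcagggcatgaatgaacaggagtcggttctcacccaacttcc
The AXL and MET windows held 2 GC boxes each, and the EGFR and EPHA2 windows 1 each, in a set of 35116 RefSeq promoter windows of the same length of which 40.1% held at least 1 on either strand. None of the 4 windows held TGANTCA, the AP-1 motif (5.38% of all windows), or TTTGGCG or TTTCCCG, forms of the E2F motif (4.20%). CATTCC, the TEAD motif, was in the EPHA2 window alone of the 4 (9.51% of all windows). All motifs were searched on both strands, and of them GC box and E2F matches can share bases. RefSeq windows were found for 8 of the 10 receptors, and for 6 a window ended at the gene start of the deposited table, with 6 GC boxes for FGFR3 and 1 for IGF1R among those not shown. AXL and EGFR each had another RefSeq start, further into the gene, whose window is not shown. That AXL window held none of these motifs, and that EGFR window held 1 AP-1 and 1 TEAD match and no GC box.

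The neighbouring genes of AXL on chromosome 19 differed less than it did. HNRNPUL1, an RNA-binding protein gene that begins 730 bases beyond the end of AXL, was at 38.31, 39.80 and 38.74 FPKM in siUSP43, against 36.35, 36.86 and 37.05 in siNC, with a log2 fold change of 0.07 (SE 0.04) that did not pass the test (edgeR, Benjamini-Hochberg adjusted p = 0.189). TGFB1, the transforming growth factor beta 1 gene, 39821 bases beyond AXL, was at 17.31, 17.05 and 14.54 FPKM against 21.41, 22.75 and 24.40 and fell, with a log2 fold change of -0.51 (SE 0.07; edgeR, Benjamini-Hochberg adjusted p = 1.3e-04). TGFB1 and HNRNPUL1 overlap at their ends on opposite strands, so reads there cannot be told apart. These neighbours were named after their values were seen.

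TYRO3 (chromosome 15, 41557675 to 41583589, plus strand), the second TAM receptor, was 2.02, 1.99 and 1.97 FPKM in siUSP43 and 1.61, 1.86 and 1.58 FPKM in siNC. The groups did not overlap, and the log2 fold change was 0.23 (SE 0.07), opposite in sign to AXL. AXL mRNA was 10.4 ± 0.518 times as abundant as TYRO3 mRNA in siUSP43 and 51.7 ± 5.21 times in siNC (SD, n = 3 each, ratios of FPKM). MERTK, the third TAM receptor, was 2.07, 1.98 and 1.86 FPKM in siUSP43 against 2.79, 2.79 and 2.57 in siNC and fell, with a log2 fold change of -0.48 (SE 0.09; edgeR, Benjamini-Hochberg adjusted p = 7.96e-04). The 3 TAM receptors together summed to 24.7 ± 0.925 FPKM in siUSP43 and 90.9 ± 2.16 in siNC (SD, n = 3 each), so AXL made up most of the TAM mRNA in either group. MERTK was singled out after its values were seen.

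EGFR (chromosome 7, 55019017 to 55211628, plus strand), the epidermal growth factor receptor, was 20.93, 19.84 and 23.61 FPKM in siUSP43 and 31.40, 31.78 and 30 FPKM in siNC. Every siUSP43 value lay below every siNC value, with a log2 fold change of -0.55 (SE 0.06). ERBB2, the ERBB receptor without a ligand of its own, was 7.15, 6.68 and 7.22 FPKM in siUSP43 and 6.38, 6.70 and 6.48 FPKM in siNC. Its groups overlapped, and its log2 fold change was 0.09 (SE 0.05). ERBB3 (chromosome 12, 56076799 to 56103505, plus strand), which binds neuregulins and has little kinase activity, was 1.42, 1.55 and 1.58 FPKM in siUSP43 and 1.81, 1.66 and 1.75 FPKM in siNC, a log2 fold change of -0.22 (SE 0.07) between groups that did not overlap. Of these ERBB receptors, EGFR had the largest difference.

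MET (chromosome 7, 116672196 to 116798377, plus strand) was 25.81, 26 and 30.63 FPKM in siUSP43 and 43.90, 42.49 and 39.76 FPKM in siNC. The groups did not overlap, and the log2 fold change was -0.63 (SE 0.07), close in size to that of EGFR. The ratio of EGFR to MET was 0.782 ± 0.0257 in siUSP43 and 0.739 ± 0.021 in siNC (SD, n = 3 each). EGFR and MET were each highest, among siUSP43 libraries, in replicate 3. Without that library their log2 fold changes were -0.62 and -0.72.

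EPHA2 (chromosome 1, 16124337 to 16156069, minus strand), an ephrin-A receptor of epithelial cells, was 43.87, 42.31 and 45.27 FPKM in siUSP43 and 35.35, 35.49 and 35.17 FPKM in siNC. All siUSP43 values lay above the siNC values, with a log2 fold change of 0.29 (SE 0.04). IGF1R (chromosome 15, 98648539 to 98964530, plus strand), the receptor of insulin-like growth factors, was 1.64, 1.62 and 1.89 FPKM in siUSP43 and 1.72, 1.71 and 1.62 FPKM in siNC. Its groups overlapped and its log2 fold change was 0.01 (SE 0.07).

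FGFR1, a fibroblast growth factor receptor, was 1.87, 1.84 and 1.92 FPKM in siUSP43 and 2.43, 2.32 and 2.30 FPKM in siNC, a log2 fold change of -0.34 (SE 0.06) between groups that did not overlap. FGFR3 (chromosome 4, 1793293 to 1808872, plus strand) was close to silent, at 0.23, 0.24 and 0.23 FPKM in siUSP43 and 0.09, 0.11 and 0.18 in siNC, and was the only one of the 10 below the filter of a mean of 1 FPKM. The reads behind those FGFR3 values were 34, 30 and 33 in siUSP43 and 12, 15 and 26 in siNC. A fit without the filter gave FGFR3 a log2 fold change of 0.89 (SE 0.31), from at most 34 reads a library.

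**Figure D1:**
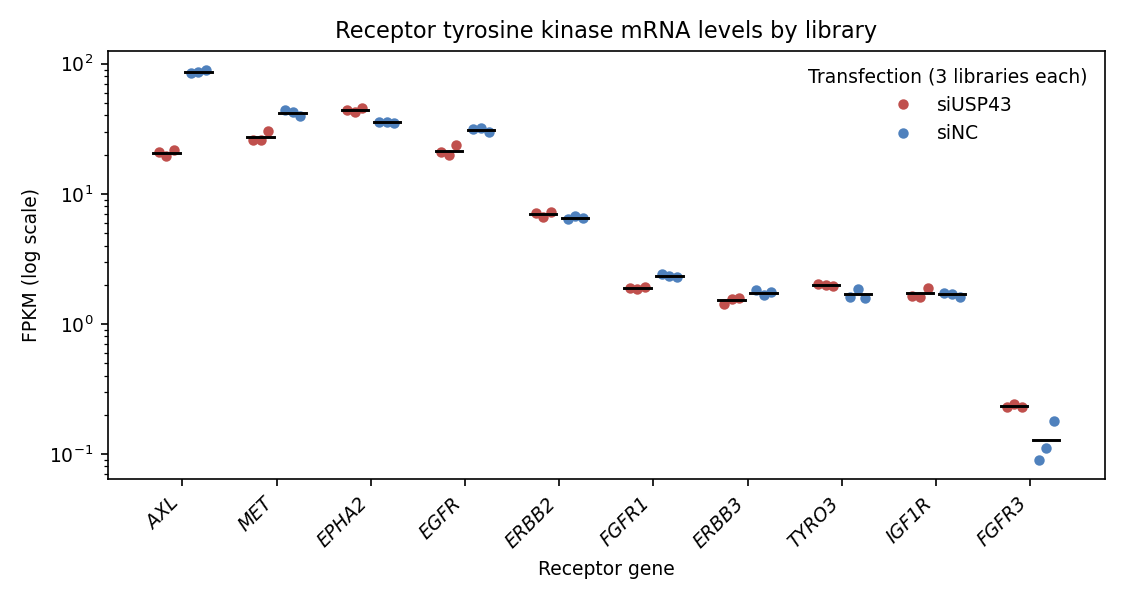
FPKM on a log axis for each of the 10 receptors, with siUSP43 libraries left of siNC libraries, a point for each library and a bar at the mean. AXL, at 19.69 to 21.53 FPKM in siUSP43 and 84.64 to 89.13 FPKM in siNC, shows the widest gap, and the ERBB2 and IGF1R points overlap between the groups.

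Of the 9 receptors above the filter, 5 were lower and 2 higher at a Benjamini-Hochberg adjusted p under 0.05 in the fit over all genes, where 28.1% of the 11417 tested genes fell and 28.0% rose. In either direction that is 7 of 9 receptors beside 56.1% of all tested genes, and the groups did not overlap for 7 of the 9, beside 62.2% of all tested genes. The median log2 fold change was -0.22 over the 9 receptors and -0.01 over all tested genes. Because the receptors were picked with this contrast known, nothing is read from these counts. The calls of TYRO3 and ERBB3 ended in 5 and 7 of 14 alternative analyses, among them those without siNC replicate 1, siNC replicate 3 or siUSP43 replicate 1.

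**Figure D2:**
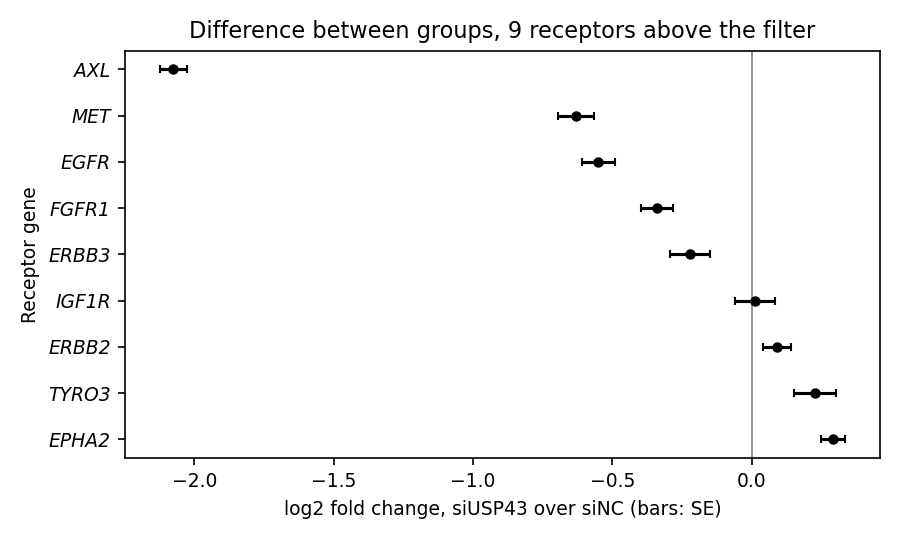
Log2 fold change of siUSP43 over siNC for the 9 receptors above the filter, with the SE from edgeR as bars and a line at 0. AXL lies at -2.08, apart from the other receptors, which run from -0.63 for MET to 0.29 for EPHA2.

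The order of the receptors by FPKM changed with AXL. In siUSP43 it ran EPHA2, MET, EGFR, AXL, ERBB2, TYRO3, FGFR1, IGF1R, ERBB3 and FGFR3, and the library values overlapped for the neighbours EGFR and AXL and for FGFR1 and IGF1R. In siNC it ran AXL, MET, EPHA2, EGFR, ERBB2, FGFR1, ERBB3, TYRO3, IGF1R and FGFR3, and the values overlapped for ERBB3 and TYRO3 and for TYRO3 and IGF1R, whose means were equal at 1.68 FPKM. AXL was thus 4th in siUSP43, where its values overlapped those of EGFR, and 1st in siNC, where it was 2.06 times as high as MET. The order depends on the exonic sizes used, which were 15941 bases for EGFR and 5134 for AXL. In siNC, EGFR had 14308, 14788 and 14004 reads, against 12421, 12853 and 13400 for AXL.

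Summed over the 10 receptors, FPKM reached 127.9 ± 7.18 in siUSP43 and 209.1 ± 0.971 in siNC (SD, n = 3 each). AXL made up 16.2 ± 0.435% of the sum in siUSP43 and 41.4 ± 1.297% in siNC. EPHA2 took 34.3 ± 0.847% in siUSP43 and 16.9 ± 0.0116% in siNC, while EGFR and MET together held 38.2 ± 1.501% and 34.97 ± 1.27%. Without AXL the sums were 107.1 ± 6.39 FPKM in siUSP43 and 122.5 ± 3.25 FPKM in siNC. AXL was 0.474 ± 0.00741 times as abundant as EPHA2 in siUSP43 and 2.45 ± 0.0753 times as abundant in siNC.

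**Figure D3:**
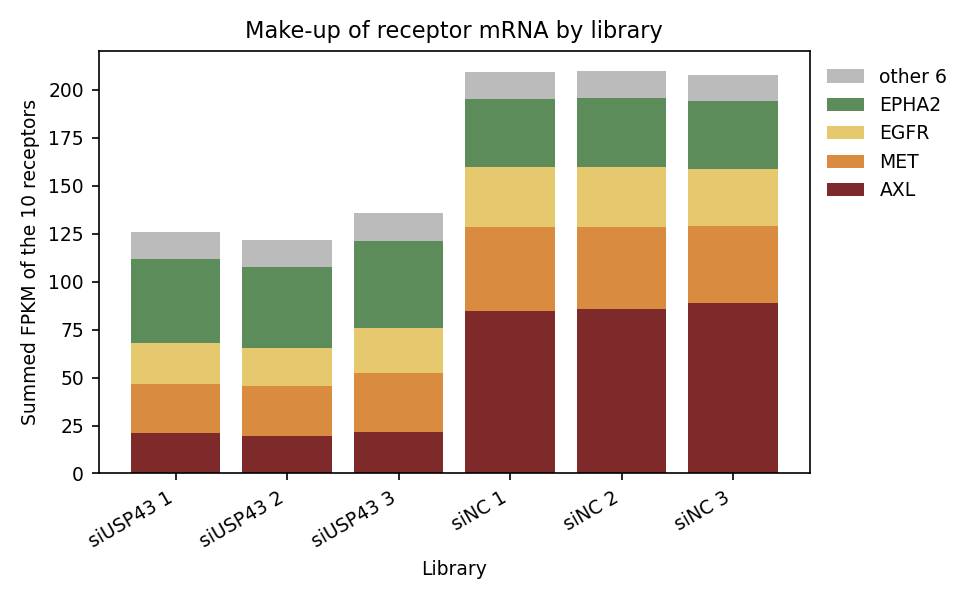
Stacked FPKM of the 10 receptors in each library, from 0, with AXL at the base and the 6 least abundant receptors pooled in grey. The totals are 121.8 to 135.8 in siUSP43 and 208.0 to 209.9 in siNC, and the AXL layer accounts for 15.9 to 16.7% and 40.4 to 42.9% of them.

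Some of the receptors carry short sequences that the naming of the genes did not use, though both choices were made with values of these libraries known. GGATCCA and GATCCAA are 7-base sequences that were picked in earlier work on these same libraries, from the fold changes of genes that carry them in the 3' UTR, so their presence is no independent evidence. AXL carries the joined 8-base form GGATCCAA near the start of its 3' UTR, EGFR and TYRO3 carry GATCCAA, and IGF1R carries GGATCCA. The sites are shown in 30 bases of GENCODE release 29 transcript on GRCh38, 5′ to 3′, with the site in capitals.
AXL, chr19:41259923-41259952, plus strand: actccctctcaGGATCCAAgctaagcactg
EGFR, chr7:55206126-55206155, plus strand: aaaacactaaaGATCCAAgaaggccttcat
TYRO3, chr15:41581942-41581971, plus strand: tttcacaaacaGATCCAAagaaccagcatc
IGF1R, chr15:98959446-98959475, plus strand: gtgggaccccgGGATCCAggctggcccagg
The site began at base 30 of 1862 in the AXL 3' UTR, base 520 of 6011 in EGFR, base 3677 of 5310 in TYRO3 and base 2015 of 7088 in IGF1R. The other 6 receptors, MET and EPHA2 among them, had none of the sequences in their 3' UTR. Of 19046 genes whose 3' UTR was 50 bases or longer, 1.39% held the 8-base form and 9.38% held any of them. Those shares were not matched for 3' UTR length.

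Receptors with a site differed in opposite ways. AXL and EGFR, at log2 fold changes of -2.08 and -0.55, were lower in siUSP43, while IGF1R and TYRO3, at 0.01 and 0.23, were not, and MET had -0.63 with no site. Over all tested genes, the median log2 fold change was -0.32 for the 141 with the 8-base form, of which 85 (60.3%) fell and 18 (12.8%) rose (edgeR, Benjamini-Hochberg adjusted p under 0.05), beside 28.1% and 28.0% of all tested genes and 27.8% and 31.0% of those with no site. The medians were -0.15 for 479 genes with GGATCCA only in its 7-base form, -0.08 for 337 with GATCCAA only, and 0.01 for 9077 with none. Of the 141 genes, 1 had a log2 fold change below that of AXL. The 3' UTRs of the 141 had a median length of 3270 bases, against 1018 bases for genes with no site. Because the sequences were picked from fold changes in these same libraries, lower values in these classes were built into the choice. The class medians and shares are therefore a description only. The part of the site in the AXL difference was not tested.

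**Figure D4:**
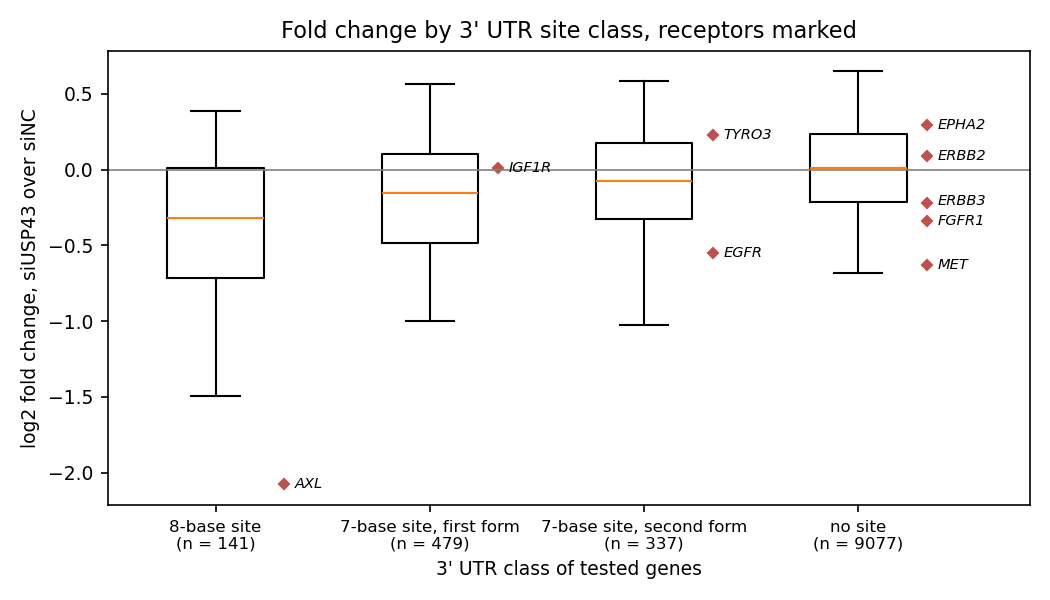
Log2 fold change of siUSP43 over siNC for tested genes grouped by the sequence in the 3' UTR (first form GGATCCA, second form GATCCAA), as boxes from the 25th to the 75th percentile with the median and whiskers from the 5 to the 95 percentile, and diamonds for the receptors. AXL lies at -2.08, below the 5th percentile of the 8-base class at -1.49, while MET, at -0.63, lies in the class with no site, whose 5th percentile is -0.68. The sequences were picked from fold changes in these same libraries, so the differences between classes are a description only.

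The genes with patterns most like AXL over the 6 libraries were ALDH1A3, SELENON, PCBP1, ZDHHC20 and PKIA. They were ranked among 3562 protein-coding genes with a mean of at least 10 FPKM by the root-mean-square difference from AXL of log2(CPM + 0.5) values centred on siNC, where CPM is the count scaled to a common library total. That difference was 0.07 for ALDH1A3, an aldehyde dehydrogenase, 0.07 for SELENON, a selenoprotein, and 0.08 for PCBP1, an RNA-binding protein. It was 0.12 for ZDHHC20, a palmitoyltransferase, and 0.12 for PKIA, an inhibitor of protein kinase A. ALDH1A3 was at 28.32, 28.12 and 30.52 FPKM in siUSP43 and 119.61, 118.57 and 110.80 in siNC, a log2 fold change of -2.02 (SE 0.05). PCBP1, at 12.52, 12.14 and 11.80 FPKM against 47.79, 48.26 and 49.48, had -2.01 (SE 0.06). In the 3' UTR, ALDH1A3 carries the 8-base form GGATCCAA, SELENON and PCBP1 carry GGATCCA, and PKIA carries GATCCAA. ZDHHC20 carries none of them, and 9.38% of all 3' UTRs hold any. The sequences were picked from fold changes in these same libraries, so their presence here is no independent evidence.

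Ligands of the 10 receptors moved in both directions. Of 39 listed, 15 passed the filter, of which 7 rose, 4 fell and 4 did not pass (edgeR, Benjamini-Hochberg adjusted p under 0.05), beside 28.0% that rose and 28.1% that fell among all tested genes. The median log2 fold change was 0.05 beside -0.01 over all tested genes. The 4 decreases were EFNA3, NRG2, FGF2 and EFNA1, and the count was 2 without siNC replicate 1, 1 without siUSP43 replicate 1, and 8 with lower filters or none, which added EGF, FGF18, FGF20 and IGF2. HGF, the ligand of MET, and IGF1, a ligand of IGF1R, were listed at 0 FPKM in every library.

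GAS6, the ligand of AXL, TYRO3 and MERTK, rose, at 32.27, 31.69 and 27.67 FPKM in siUSP43 against 23.96, 24.84 and 25.79 in siNC. Its log2 fold change was 0.28 (SE 0.06; edgeR, Benjamini-Hochberg adjusted p = 0.00216), and all siUSP43 values lay above all siNC values. AXL mRNA was 0.684 ± 0.083 times as abundant as GAS6 mRNA in siUSP43 and 3.48 ± 0.0457 times as abundant in siNC (SD, n = 3 each, ratios of FPKM). PROS1, which encodes protein S, did not pass, with 0.05 on the log2 scale (SE 0.08; edgeR, Benjamini-Hochberg adjusted p = 0.599).

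Of 7 EGFR ligands listed, HBEGF, AREG, TGFA and EREG rose, BTC did not pass, and EGF and EPGN were below the filter. HBEGF, heparin-binding EGF-like growth factor, was 18.42, 18.57 and 17.73 FPKM in siUSP43 and 9.37, 9.56 and 9.29 in siNC, a log2 fold change of 0.94 (SE 0.06; edgeR, Benjamini-Hochberg adjusted p = 1.24e-07). AREG, amphiregulin, rose by 0.64 on the log2 scale (SE 0.13) and TGFA by 0.26 (SE 0.06), and neither pair of groups overlapped. EREG, epiregulin, had 0.25 (SE 0.10) and passed narrowly (edgeR, Benjamini-Hochberg adjusted p = 0.0456). That call was lost in analyses without siNC replicate 1, 2 or 3 and without siUSP43 replicate 1 or 3 (0.13 on the log2 scale without siUSP43 replicate 3), and the EREG groups overlapped. The EREG call was also lost in both limma fits on FPKM and with the replicate number as a block. BTC, betacellulin, had -0.36 (SE 0.16) and did not pass (edgeR, Benjamini-Hochberg adjusted p = 0.0771; 0.0271 without siUSP43 replicate 3). EGF was 0.05 FPKM in each siUSP43 library and 0.19, 0.12 and 0.10 in siNC, from at most 42 reads a library, and was among the genes called lower with lower filters or none. The 5 ligands other than EGF and EPGN summed to 36.1 ± 0.742 FPKM in siUSP43 and 23.8 ± 0.718 in siNC, and HBEGF was 0.856 ± 0.0949 times as abundant as EGFR in siUSP43 and 0.303 ± 0.00595 times in siNC (SD, n = 3 each).

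Among ligands of the other receptors, FGF1 showed the largest increase, at 1.53, 1.63 and 1.44 FPKM in siUSP43 and 0.57, 0.47 and 0.54 in siNC, a log2 fold change of 1.52 (SE 0.13; edgeR, Benjamini-Hochberg adjusted p = 1.47e-06). FGF1 reached the filter of a mean of 1 FPKM only through siUSP43, and with no filter its log2 fold change was 1.525. FGF5, also an FGF receptor ligand, rose by 0.41 (SE 0.06), and FGF2 fell, with -0.29 (SE 0.10; edgeR, Benjamini-Hochberg adjusted p = 0.0283). The FGF2 groups overlapped, and its call ended without siNC replicate 1 or 2 or siUSP43 replicate 1 or 2 (-0.19 without the last). The FGF2 call also ended in both limma fits on FPKM. NRG2, a neuregulin of the ERBB3 ligand family, fell, with -0.43 (SE 0.08). NRG1, another neuregulin, was below the filter, at 0.73, 0.71 and 0.83 FPKM in siUSP43 and 0.69, 0.71 and 0.67 in siNC. It had 468, 386 and 538 reads in siUSP43 and 424, 441 and 421 in siNC over an exonic size of 21372 bases. EFNA1, an EPHA2 ligand, fell to 14.43, 15.84 and 12.97 FPKM in siUSP43, against 16.45, 16.74 and 17.10 in siNC, a log2 fold change of -0.24 (SE 0.08), and EFNA3 had -0.54 (SE 0.17). EPHA2 mRNA was 3.07 ± 0.41 times as abundant as EFNA1 mRNA in siUSP43 and 2.11 ± 0.047 times in siNC (SD, n = 3 each). The EFNA1 call ended without siNC replicate 3 or siUSP43 replicate 1, and the EFNA3 call without siNC replicate 1 or siUSP43 replicate 1. EFNA4 and EFNA5 did not pass, at -0.17 (SE 0.11) and -0.03 (SE 0.07).

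The remaining receptor tyrosine kinases were mostly silent in these cells. Of 58 receptor genes in all, 21 had a mean of at least 1 FPKM, and AXL, EPHA2, MET and EGFR had the 4 highest means. Of 48 outside the chosen 10, 12 passed the filter, of which 6 fell, 1 rose and 5 did not pass (edgeR, Benjamini-Hochberg adjusted p under 0.05). The share called was near the 56.1% of all tested genes, of which 28.1% fell and 28.0% rose, and the median log2 fold change was -0.17. The 5 that did not pass were FGFR4, PTK7, RYK, LMTK2 and STYK1, all between -0.22 and 0.10 on the log2 scale. The 6 that fell were EPHA4, EPHB2, MST1R, MERTK, DDR1 and EPHB4. With no filter 12 of 47 fell and 1 rose, and with a count-based filter 11 of 23 fell and 1 rose, the additions having means under 1 FPKM. Among all genes called, 48.53% rose with no filter and 49.59% with the count-based filter. The share of all tested genes that fell is not given for these filters, so nothing is read from the counts.

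EPHA4, an ephrin receptor, fell to 0.64, 0.64 and 0.76 FPKM in siUSP43, against 1.45, 1.39 and 1.21 in siNC, a log2 fold change of -1.0 (SE 0.12; edgeR, Benjamini-Hochberg adjusted p = 1.85e-05). EPHB2 had -0.79 (SE 0.06), and MST1R, the relative of MET that binds macrophage-stimulating protein, -0.48 (SE 0.08). ROR1, a receptor of WNT5A, was the 1 gene that rose, at 1.67, 1.19 and 1.55 FPKM in siUSP43 and 0.66, 0.75 and 0.58 in siNC, a log2 fold change of 1.13 (SE 0.14; edgeR, Benjamini-Hochberg adjusted p = 3.87e-05). DDR1, a collagen receptor, and EPHB4 had -0.19 (SE 0.06) and -0.15 (SE 0.05). The DDR1 call ended without siNC replicate 1 or 2, in both limma fits on FPKM and with the replicate number as a block. The EPHB4 call ended without siNC replicate 1 or siUSP43 replicate 1, with no filter and with that block.

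**Figure D5:**
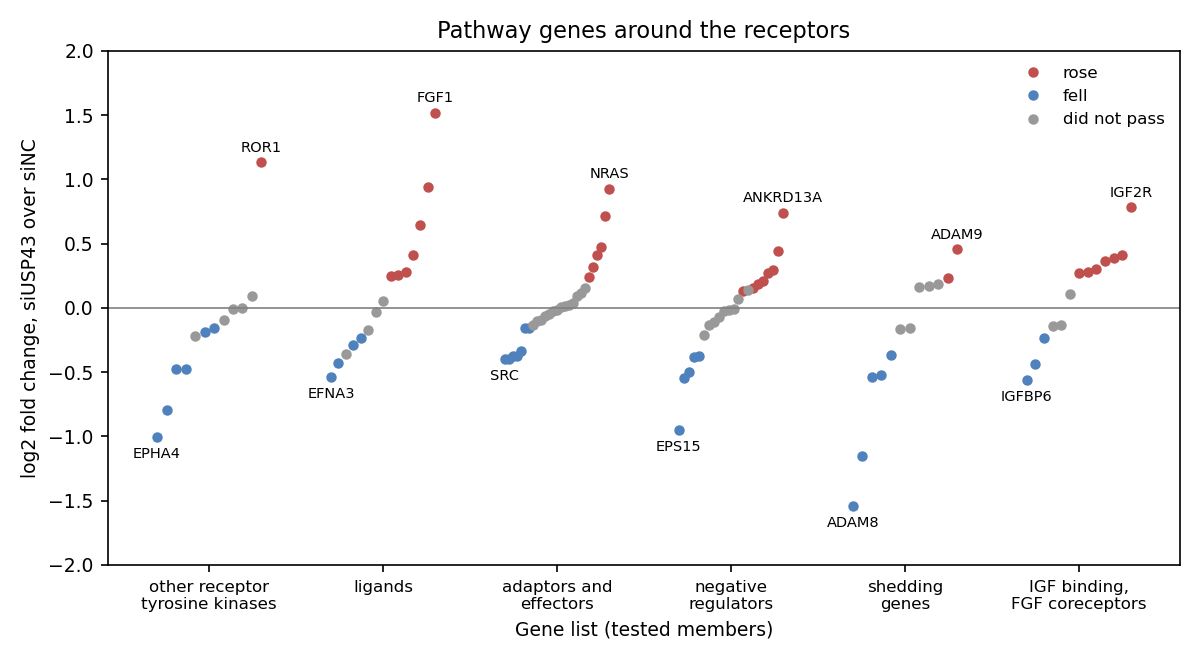
Log2 fold change of siUSP43 over siNC for each tested gene of 6 lists around the receptors, 1 point a gene, coloured by whether it rose, fell or did not pass (edgeR, Benjamini-Hochberg adjusted p under 0.05), with the outermost genes named. FGF1 is the highest point, at 1.52, and ADAM8 the lowest, at -1.54.

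Of 33 adaptors and proximal effectors listed, 27 passed the filter, of which 6 rose, 7 fell and 14 did not pass (edgeR, Benjamini-Hochberg adjusted p under 0.05), against 28.0% and 28.1% of all genes, so the share called was no higher than the background of 56.1%. The median log2 fold change was -0.01. NRAS rose most, at 48.62, 50.35 and 57.87 FPKM in siUSP43 and 28.05, 27.91 and 25.67 in siNC, a log2 fold change of 0.93 (SE 0.07). HRAS, the RAS gene mutated in T24 cells, fell, with -0.33 (SE 0.07). PTPN11, the phosphatase SHP2 that relays receptor signals to RAS, rose by 0.72 (SE 0.09), and YES1, a SRC family kinase, by 0.48 (SE 0.06), while SRC itself had -0.40 (SE 0.05). GAB2 and IRS2, docking proteins, fell, with -0.40 (SE 0.08) and -0.38 (SE 0.08). GRB2, the adaptor that joins receptors to SOS, had 0.02 (SE 0.04) and did not pass.

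Of 25 negative regulators of receptor tyrosine kinases, 22 passed the filter, of which 8 rose, 5 fell and 9 did not pass (edgeR, Benjamini-Hochberg adjusted p under 0.05), a share called near the 56.1% of all tested genes. The median was -0.01 on the log2 scale, and 5 rose in a fit with the replicate number as a block. ANKRD13A, a ubiquitin-binding regulator of EGFR internalisation, rose by 0.74 (SE 0.05), and the receptor-type phosphatases PTPRJ and PTPRK rose by 0.44 (SE 0.06) and 0.30 (SE 0.08). EPS15, an endocytic adaptor of EGFR, fell to 4.79, 4.51 and 4.90 FPKM in siUSP43, against 9.54, 9.01 and 8.61 in siNC, a log2 fold change of -0.95 (SE 0.06; edgeR, Benjamini-Hochberg adjusted p = 1.26e-07). STAM2, an endosomal sorting protein, and CBLB, a ubiquitin ligase of receptors, fell, with -0.55 (SE 0.07) and -0.50 (SE 0.08). CBLB, at a mean of 0.97 FPKM in siUSP43 and 1.35 in siNC, reached the filter only through siNC. ERRFI1, an inhibitor of the EGFR kinase domain, fell, with -0.37 (SE 0.06). CBL, which carries the 8-base form in its 3' UTR, had 0.14 (SE 0.06) and did not pass (edgeR, Benjamini-Hochberg adjusted p = 0.0712; 0.0183 without siUSP43 replicate 2). Among the other tested genes with a site, over all the lists around the receptors, ADAM19, ADAM10, CBLB and FGF2 fell. LMTK2, CRK and SOCS4 also carry a site and did not pass.

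Of 13 genes that shed receptors and ligands or restrain that shedding, 12 passed the filter, of which 2 rose, 5 fell and 5 did not pass (edgeR, Benjamini-Hochberg adjusted p under 0.05). That share called was also near the background of 56.1%, and the median log2 fold change was -0.16. With no filter on low genes 4 rose. ADAM8 fell to 2.24, 1.92 and 1.76 FPKM in siUSP43, against 5.46, 5.62 and 5.96 in siNC, a log2 fold change of -1.54 (SE 0.09), and ADAM19 had -1.15 (SE 0.08). ADAM10, a protease that releases the AXL and MET outer domains, fell, with -0.52 (SE 0.07), and ADAM17, the main protease of EGFR ligands, had 0.17 (SE 0.12) and did not pass (edgeR, Benjamini-Hochberg adjusted p = 0.253), with -0.01 without siUSP43 replicate 3. ADAM9 and ADAM12 rose by 0.45 (SE 0.08) and 0.23 (SE 0.07). The ADAM12 call ended without siNC replicate 2 or 3, which left 1 gene that rose. TIMP1, a metalloprotease inhibitor, fell, with -0.54 (SE 0.08).

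Of 18 genes for insulin-like growth factor binding and FGF coreceptors, 13 passed the filter, of which 7 rose, 3 fell and 3 did not pass (edgeR, Benjamini-Hochberg adjusted p under 0.05), where 28.0% of all tested genes rose and 28.1% fell. Their median log2 fold change was 0.27, beside -0.01 over all tested genes. IGF2R, the receptor that clears IGF2, rose by 0.78 (SE 0.06), at 9.92, 9.94 and 11.32 FPKM in siUSP43 and 6.07, 6 and 5.83 in siNC. IGF2BP3 and IGF2BP1, which bind the IGF2 mRNA and not the protein, rose by 0.41 (SE 0.12; 0.25 without siUSP43 replicate 3) and 0.39 (SE 0.05), and SDC4, a heparan sulphate coreceptor, by 0.27 (SE 0.04). IGFBP6, FGFRL1, an FGF receptor without a kinase domain, and IGFBP4 fell, with -0.56 (SE 0.09), -0.44 (SE 0.07) and -0.24 (SE 0.06). Of the tested IGF binding proteins themselves, IGFBP3 alone rose, by 0.36 (SE 0.07), and IGFBP7, at -0.14 (SE 0.06), did not pass.

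In the deposited coordinates TYRO3, MET and FGFR3 overlapped no other gene. ERBB2 (chromosome 17, 39687914 to 39730426, plus strand) overlapped MIEN1 and PGAP3 on the other strand, which averaged 12.7 and 2.70 FPKM over the 6 libraries. FGFR1 (chromosome 8, 38400215 to 38468834, minus strand) overlapped LETM2 at 1.95 FPKM. The strand setting of the counting was not given in the sources used here. Whether reads in the stretches that ERBB2 and FGFR1 share with these partners were told apart is therefore not known. The genes overlapping AXL, EGFR, EPHA2, ERBB3 and IGF1R each averaged under 1 FPKM.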

How the data were processed

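RNA from 6 T24 libraries (3 siUSP43, 3 siNC) was extracted with TRIzol, per the labels' protocols, and the titles gave each library its group and number. Per the submitters' processing notes, reads were trimmed with cutadapt 2.6 and aligned with HISAT2 2.2.1 to GRCh38. The counting tool, its annotation and its strand setting are not given in the sources used here. Each library held 21430574 to 25577200 gene counts. The authors' deposited table holds raw counts and FPKM per gene for each library, per the file headers, and the FPKM values imply scaling totals of 1.18 to 1.19 times the gene counts.

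Counts were tested across all genes with edgeR 4.0.16 in R 4.3.3 (quasi-likelihood test, TMM scaling, group as the only term), for genes with a mean of at least 1 FPKM over the 6 libraries. P-values were adjusted by Benjamini-Hochberg over all 11417 tested genes, two-sided, with a threshold of 0.05. Fold changes are siUSP43 over siNC, and SE is the log2 fold change divided by the square root of the F statistic. The test functions were checked on simulated counts. The receptors, gene lists and 7-base sequences were chosen with earlier results of these data known.

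For the lists, the 3 largest increases and decreases past the test were named by rule. So were those ligands of AXL, TYRO3, EGFR, ERBB3, MET, EPHA2 and IGF1R that reached the filter. MERTK, DDR1, EPHB4, FGF5, NRG1, HRAS, GRB2, ERRFI1, CBL, ADAM10, ADAM17, IGFBP3, IGFBP7 and SDC4 were added after their values were seen. DESeq2 1.42.0 and limma 3.58.1 on log2(FPKM + 1) or log2(FPKM + 0.1), other scalings and filters, a replicate block and fits that left out each library in turn were alternatives. For each gene, the longest principal GENCODE transcript gave the 3' UTR. No 2 libraries of a group were as alike as counting noise would make them, with a chi-square per degree of freedom of 2.13 to 11.3.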

Additional observations from a re-analysis of the deposited data

How the results depend on the processing

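Over 14 alternatives the log2 fold change of AXL ran from -2.10 to -2.01, with -2.01 in limma on log2(FPKM + 1), which understates it, and -2.10 to -2.04 with 1 library left out. EGFR ran from -0.62 to -0.50, MET from -0.72 to -0.58, EPHA2 from 0.27 to 0.32 and FGFR1 from -0.36 to -0.22, while IGF1R changed sign within -0.06 to 0.05 without a call. With 1 library left out, 2718 to 3273 genes rose and 2710 to 3275 fell, against 3198 and 3211 with all. With no filter, 12 other receptor tyrosine kinases and 8 ligands fell and 4 shedding genes rose, and with edgeR's filterByExpr 11 and 8 fell. Among all genes called, 48.53% rose with no filter and 49.59% with filterByExpr. Of the decreases with no filter, 7 receptor kinases and 4 ligands had means under 1 FPKM, while none of the 4 shedding genes did, and the cause of that change was not tested. With 1 library left out, 4 to 6 other receptor kinases fell and 1 rose, 6 to 7 ligands rose and 1 to 5 fell, and 1 to 3 shedding genes rose. The cause of the changes with left-out libraries was not tested.

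Same-numbered libraries did not deviate together, with correlations of -0.037, -0.168 and -0.345 over tested genes, so the numbers were not treated as pairs. With the replicate block, 2775 genes rose and 2841 fell, and 5 negative regulators rose in place of 8. Of 756 values of 54 pathway genes over 14 alternatives, 719 kept their direction and call, 29 lost the call, 4 gained one and 4 changed sign. The sign changes were in genes that did not pass, with PROS1 at -0.012 without siUSP43 replicate 3 (highest 0.096 with 1 library left out), EFNA5 (lowest -0.082) at 0.009 without siNC replicate 3 and 0.027 without siUSP43 replicate 2, and ADAM17 at -0.011 without siUSP43 replicate 3. FGFR3, with 12 to 34 reads a library, is limited by depth.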
